A study of Schizosaccharomyces pombe with 8 samples.

Results

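Hot to cold pairs are ligations between a place that the study's authors classed as hot and one that they classed as cold on the same chromosome, here with the ends 5 to 200 kb apart. They were selected from the pairs of DNA ends recovered with Rec27-GFP by immunoprecipitation from meiotic fission yeast (Schizosaccharomyces pombe). Pairs whose ends both lay within 500 bp of those of another pair of the same kind were counted once, as 1 ligation event, since such pairs can be copies of a single junction. Whether they were copies or separate ligations was not tested. The merging gave 2637 hot to cold events of 89862 events in both libraries together. These totals count every kind of pair except those under 5 kb apart on a chromosome, which were left out. Hot to cold events were 1841 of the 34669 so counted in the interacting library (5.31%, 95% Clopper-Pearson interval 5.08 to 5.55). In the de-crosslinked library they were 796 of 55193 (1.44%, interval 1.34 to 1.55).

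Both libraries came from cells of genotype pat1-114 rec12D, in which a temperature-sensitive Pat1 kinase starts meiosis on warming and the Rec12 protein, which makes the DNA breaks of meiosis, is missing. In the interacting library, chromatin pulled down with Rec27-GFP was ligated while crosslinked by 1% formaldehyde, which joins fragments that were close to each other when fixed. For the de-crosslinked library the fixation was undone before the fragments were ligated, which were then free in solution. Cells were harvested 3.5 h after meiosis was started at 34 °C, there was 1 library of each kind, and the other 6 samples of the series of 8, which used a rec8 deletion or FLAG tags, were not analysed here. The series was sequenced in more than 1 run, and the labels do not say which library was in which, so that run and group cannot be told apart. No input or untagged sample is among the 8.

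Linear elements are rod-like protein structures that form along fission yeast chromosomes in meiosis and are related to the lateral elements of the synaptonemal complex in other species. Rec27, together with Rec25, Rec10 and Mug20, is a component of them, and Rec25, Rec27 and Mug20 gather at the DNA break hotspots of meiosis. Hotspots are separated by cold DNA, where Rec12 makes few breaks. The series title asks about communication over long distances along meiotic chromosomes, and ligations between hot and cold places in excess of those in the de-crosslinked library are the measure of hot DNA lying near cold DNA used here.

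The sequences at both ends of 2 repeatedly joined places are shown, as examples of which DNA was hot and which was cold in such joins. Each is 300 bases of the plus strand of the RefSeq assembly ASM294v3, written 5′ to 3′, and the 10 bases around each end of a hot to cold event of the interacting library are in capitals. The first pair joins hot DNA in noncoding RNA genes at chrI:2290547-2290846, beside ymc1, to cold DNA that overlaps the ketoreductase gene ifa38 at chrI:2281951-2282250. The second joins hot DNA overlapping the ubiquitin ligase gene hel2 at chrIII:1837438-1837737 to cold DNA overlapping SPCC297.05 at chrIII:1885244-1885543. Counted over the wider hot and cold places, the first had 4 events in the interacting library, each seen as a single pair of ends. It also had 1 event in the de-crosslinked library. The second had 3 events, seen as 14 pairs of ends, in the interacting library, against 0 events in the de-crosslinked one.
ymc1 region, hot: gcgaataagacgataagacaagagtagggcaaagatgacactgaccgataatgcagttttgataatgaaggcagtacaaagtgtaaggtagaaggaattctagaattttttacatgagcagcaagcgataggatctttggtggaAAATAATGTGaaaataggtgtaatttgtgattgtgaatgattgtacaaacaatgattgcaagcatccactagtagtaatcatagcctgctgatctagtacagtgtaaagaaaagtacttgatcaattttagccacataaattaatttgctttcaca
ifa38 bin, cold: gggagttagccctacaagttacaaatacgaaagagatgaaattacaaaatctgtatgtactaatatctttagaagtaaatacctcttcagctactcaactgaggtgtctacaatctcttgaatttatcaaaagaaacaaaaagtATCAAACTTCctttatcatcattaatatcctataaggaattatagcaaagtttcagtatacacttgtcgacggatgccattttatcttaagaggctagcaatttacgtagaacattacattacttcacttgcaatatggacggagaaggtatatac
hel2 region, hot: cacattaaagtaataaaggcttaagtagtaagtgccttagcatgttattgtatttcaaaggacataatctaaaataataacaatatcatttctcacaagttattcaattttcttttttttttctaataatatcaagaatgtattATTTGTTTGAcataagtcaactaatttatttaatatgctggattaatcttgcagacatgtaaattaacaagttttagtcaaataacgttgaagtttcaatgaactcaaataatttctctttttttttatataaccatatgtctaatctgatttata
SPCC297.05 bin, cold: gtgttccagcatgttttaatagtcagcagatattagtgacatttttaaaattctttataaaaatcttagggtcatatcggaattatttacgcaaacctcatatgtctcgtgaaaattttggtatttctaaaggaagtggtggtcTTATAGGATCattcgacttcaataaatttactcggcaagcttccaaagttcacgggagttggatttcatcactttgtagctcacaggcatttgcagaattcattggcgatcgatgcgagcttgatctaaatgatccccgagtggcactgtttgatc

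The hot windows held 65% and 77% A or T in the order printed, against a median of 63.7% over windows of all hot DNA. Their cold partners held 67.3% and 62.3%, against a median of 64% over windows of all cold DNA. Each of the 4 windows held 1 event end of the interacting library. None held ATGACGT, the M26 sequence bound by the Atf1 and Pcr1 transcription factors at some hotspots, nor CCAATCA, which contains the CCAAT box, on either strand.

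The hot and cold classes were the authors' own, and the rule behind them is not given in the sources used here. Runs of neighbouring hot ends over both tables were joined into 451 hot regions with a median width of 5314 bp (range 3695 to 24483), which cover 22.9% of the genome. They held 35.3% of all event ends in the interacting library, against 38.7% in the de-crosslinked one. No position was hot in 1 table and cold in the other. The deleted gene rec12 (chrI:1772925-1774203) held 1 end in each library, against 20.8 and 25.1 if ends had been spread evenly.

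The first comparison asked how often hot and cold places were joined nearby when the DNA was crosslinked. Of the hot to cold events at least 5 kb apart within a chromosome, 1841 of 6281 in the interacting library spanned 5 to 200 kb. This is 29.3% (interval 28.2 to 30.5). Without crosslinks 796 of 9333 did so, which is 8.53% (7.97 to 9.11). Joining each library's own ends at random gives 8.42% in both, so that the de-crosslinked library lay at the random level and the interacting library 20.8 percentage points above its control. A two-sided Fisher's exact test on these event counts gave p = 4.58e-250. With 1 library per group the test compares the libraries, not the conditions, and its error is that of counting only.

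Nearby hot to cold joins were shorter in the interacting library. The median distance was 32.4 kb (quartiles 14.6 and 69.8) in the interacting library, against 99.5 kb (48.2 and 153) in the de-crosslinked one. The limits cut a continuous range of distances. Just below and above 5 kb there were 81 and 72 events in the interacting library, against 21 and 12 in the de-crosslinked one, in steps of 1 kb. Just below and above 200 kb there were 24 and 22 in the interacting library, against 37 and 41 in the de-crosslinked one, in steps of 10 kb.

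The excess over random joining declined with every step of distance in the interacting library. Hot to cold events 5 to 10 kb apart numbered 282 there, 21.7 times (interval 19.2 to 24.3) the number given by random joining of its ends. For 10 to 20 kb the excess was 13.2 times on 351 events, for 20 to 50 kb it was 7.15 times on 555 events, and for 50 to 100 kb it was 2.96 times on 377 events. At 100 to 200 kb the 276 events were 1.12 times the random number (0.996 to 1.27), an interval that includes 1. In the de-crosslinked library the ratio was 1.72 (1.22 to 2.36) on 38 events at 5 to 10 kb, and between 0.905 and 1.20 in the 4 wider steps, all with intervals that include 1. Over 5 to 200 kb it was 3.76 (3.59 to 3.93) in the interacting library, against 0.979 (0.912 to 1.05) in the de-crosslinked one.

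**Figure D1:**
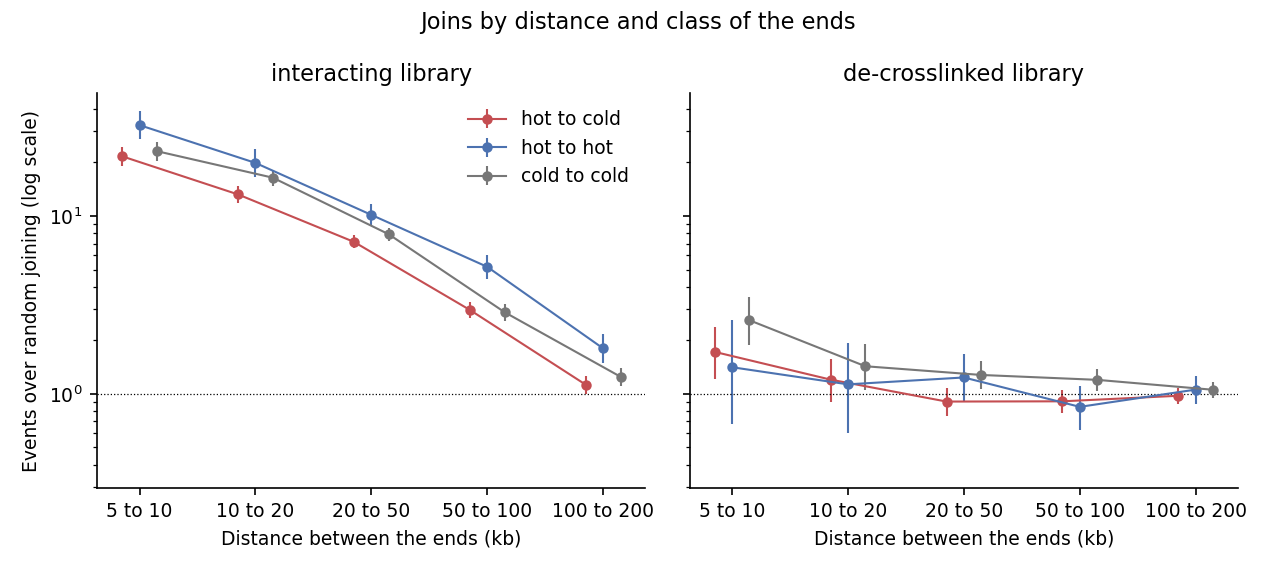
Events over the number given by random joining of each library's own ends (log scale), against the distance between the ends, for hot to cold, hot to hot and cold to cold events, with exact Poisson 95% intervals. Hot to cold events of the interacting library are 21.7 times the random number in the shortest step and 1.12 times in the longest, whereas those of the de-crosslinked library stay between 0.905 and 1.72 times.

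Of the 3 classes, hot to cold exceeded random joining least over the whole range. In the interacting library, events over 5 to 200 kb were 3.76 times (3.59 to 3.93) the random number for hot to cold, against 5.72 times (5.30 to 6.15) for the 717 hot to hot events and 4.06 times (3.88 to 4.25) for the 1797 cold to cold events. The intervals of hot to cold and cold to cold overlap, and at 50 to 100 kb the cold to cold ratio was 2.88, against 2.96 for hot to cold. Without crosslinks the ratios were 0.979 for hot to cold, 1.04 for hot to hot (245 events) and 1.19 for cold to cold (754 events). Relative to the geometric mean of the like classes, the hot to cold ratio differed by -0.36 ± 0.05 on the log2 scale in the interacting library and by -0.18 ± 0.07 in the de-crosslinked library (SE from counts).

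The mix of classes was also compared at matched distance. For each 1 kb step, all possible pairs of a library's ends gave the share that would be hot to cold if distance but not class decided which ends were joined. Hot to cold events made up 42.3% of the 4355 events of all classes 5 to 200 kb apart in the interacting library, against 46.6% given by the mix. In the de-crosslinked library they made up 44.3% of 1795 events, against 48.3% given by the mix. The ratio of observed to expected was 0.908 (0.876 to 0.940) in the interacting library, against 0.918 (0.870 to 0.967) in the de-crosslinked one, so that both lay below 1. The interacting less the de-crosslinked value was -0.02 ± 0.05 on the log2 scale (interval -0.11 to 0.07).

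The shortfall was not particular to nearby joins. For farther joins and those between chromosomes, the expected share was taken over all such pairs together, without distance steps. In the interacting library the ratio was 0.917 (0.896 to 0.937) farther than 200 kb on a chromosome and 0.933 (0.917 to 0.948) between chromosomes. The nearby ratio less that between chromosomes was -0.04 ± 0.03 (log2, interval -0.09 to 0.02) in the interacting library, against -0.07 ± 0.04 (-0.14 to 0.01) in the de-crosslinked one. Between chromosomes the ratio was 0.963 (0.952 to 0.974) in the de-crosslinked library, and the interacting less the de-crosslinked value was -0.05 ± 0.01 (log2, interval -0.07 to -0.02). Farther on a chromosome the same difference was -0.07 ± 0.02 (-0.11 to -0.03). Thus by this ratio the libraries differed beyond counting error at long range and between chromosomes. Within 200 kb no such difference was detectable by this ratio at this depth. Relative to the like classes, the hot to cold values within 200 kb were -0.36 ± 0.05 in the interacting library, against -0.18 ± 0.07 in the de-crosslinked one. The difference between those values was not tested.

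**Figure D2:**
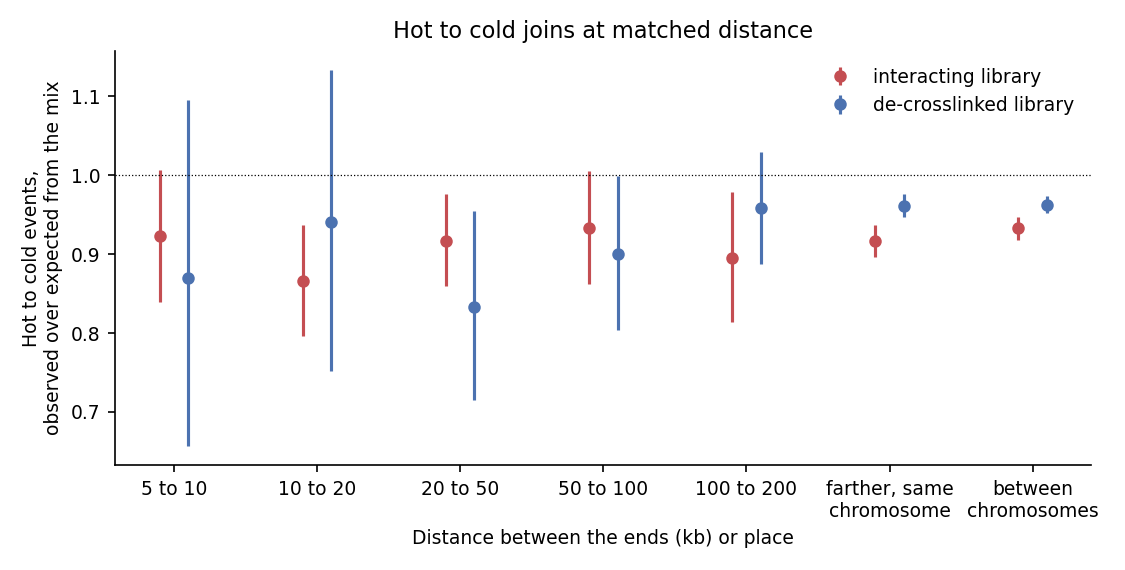
Observed hot to cold events over the number expected from the mix of ends, by distance, with 95% intervals. The expectation is matched by distance up to 200 kb, and pooled farther on a chromosome and between chromosomes. The interacting library is left of the de-crosslinked library in each pair. Every point lies below 1, and over 5 to 200 kb the values are 0.908 in the interacting library, against 0.918 in the de-crosslinked one.

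The gain of nearby joins with crosslinks over those without was then compared between classes, as the log2 odds ratio of events 5 to 200 kb apart over events farther apart or between chromosomes. It was 2.13 ± 0.06 (SE) for hot to cold, 2.57 ± 0.11 for hot to hot and 1.88 ± 0.06 for cold to cold. Hot to cold less hot to hot was -0.44 ± 0.13, and hot to cold less cold to cold was 0.25 ± 0.09. Wald z tests on the event counts gave p-values of 0.00115 and 0.00483, adjusted over both (Benjamini-Hochberg), and Zelen's exact test on the same counts gave 0.00107 and 0.00520. Without chromosome II the differences were -0.32 and 0.17, the adjusted exact p-values were 0.0844 and 0.137, and neither difference passed 0.05. These tests too compare the libraries only.

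All 3 chromosomes carried hot to cold events at a like density. Chromosomes I, II and III held 809, 676 and 356 events in the interacting library, or 145, 149 and 145 per Mb, against 368, 283 and 145 events in the de-crosslinked library, or 66.0, 62.3 and 59.1 per Mb. The share of a chromosome's hot to cold events that fell within 200 kb was 24.2%, 31.4% and 45.8% in the interacting library, against 7.18%, 8.60% and 15.8% in the de-crosslinked library, and thus higher in the interacting library on each. In both libraries the share was higher on the shorter chromosomes, of which 200 kb is a larger part. The share given by random joining was not computed for each chromosome.

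Along the chromosomes, the 124 full windows of 100 kb held a median of 14 hot ends of these events in the interacting library (lowest 1, highest 41) and 6 in the de-crosslinked library (lowest 0, highest 20). Relative to the events in each library, all 124 windows held more in the interacting library, although many rest on a few events. The fullest window, chrIII:200001-300000, held 41 in the interacting library, against 18 in the de-crosslinked one. The emptiest, chrIII:1200001-1300000, held 1 in each.

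The next question was whether a hot place was joined to the cold DNA next to it or to cold DNA beyond other hot regions. In the interacting library 780 events (42.4%) had no other hot region between the ends, 421 had 1, 216 had 2 and 424 (23.0%) had 3 or more, up to 12. Without crosslinks 133 events (16.7%) had none and 438 (55.0%) had 3 or more, up to 13. Random partners at the same distances would give 43.3% with none in the interacting library, against 17.4% in the de-crosslinked one. The ratios of observed to expected were 0.979 (0.926 to 1.03) and 0.959 (0.814 to 1.12) for the interacting and de-crosslinked libraries, so that neither share differed from that of random partners at these distances beyond counting error.

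Cold ends lay a median of 5531 bp from the edge of the nearest hot region in the interacting library, against 6881 bp in the de-crosslinked one. In the interacting library 334 cold ends (18.1%) lay within 2 kb of a hot region other than the one they were joined to, against 16.0% for random cold partners at the same distances, a ratio of 1.13 (1.02 to 1.25). In the de-crosslinked library 137 (17.2%) did so, against 17.5%, a ratio of 0.985 (0.838 to 1.15). These intervals overlap, and the difference between the libraries was not tested. The region nearest to the cold end was its own partner in 454 events (24.7%, against 26.5% for random partners) of the interacting library and in 66 events (8.29%, against 9.40%) of the de-crosslinked library. The hot end was the left one of the pair in 47.8% (45.5 to 50.1) of events in the interacting library, against 50.6% (47.1 to 54.2) in the de-crosslinked one, and both intervals include equal shares.

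**Figure D3:**
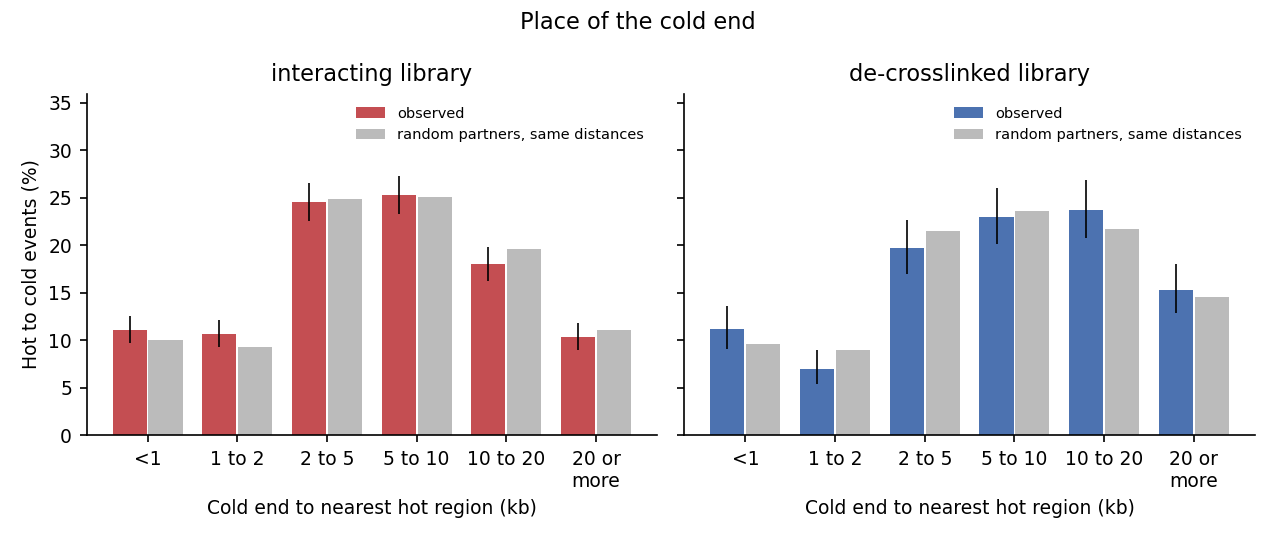
Percent of hot to cold events by the distance from the cold end to the edge of the nearest hot region, observed (coloured, with 95% intervals) and for random cold partners at the same distances (grey), in the interacting library (left) and the de-crosslinked library (right). Observed and random shares lie close together, with 24.6% observed at 2 to 5 kb against 24.8% in the interacting library.

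Hot ends lay less often in coding genes, and more often in noncoding RNA genes, than hot DNA as a whole. The same held for all hot ends whatever their partner, of which 55.6% lay in coding genes in the interacting library and 53.7% without crosslinks. Hot ends of hot to cold events lay in a protein-coding gene in 55.8% (53.5 to 58.1) of events in the interacting library and 53.5% (upper bound 57.0) of those without crosslinks, whereas coding genes cover 66.2% of hot DNA. They lay in a long noncoding RNA gene outside coding genes in 31.5% (29.3 to 33.6) of events in the interacting library and 35.2% (31.9 to 38.6) of those without crosslinks, whereas such genes cover 21.2% of hot DNA. Of all hot ends, whatever their partner, 29.8% lay in such noncoding genes in the interacting library, against 33.1% in the de-crosslinked one. Cold ends lay in coding genes in 79.1% of events in the interacting library, against 80.4% in the de-crosslinked one, near the 79.8% of cold DNA. Noncoding genes held 9.67% of cold ends in the interacting library and 8.29% without crosslinks, and cover 9.71% of cold DNA.

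The M26 sequence ATGACGT, which contains the core TGACGT of cyclic AMP response elements, was searched for on both strands in 300 bp around each end. It was present at 1.19% of hot ends in the interacting library and 1.51% without crosslinks, and in 1.13% of 9136 windows of hot DNA. At cold ends it was present in 0.706% and 0.251% for the interacting and de-crosslinked libraries, against 0.521% of 31870 windows of cold DNA. Windows with CCAATCA made up 3.75% of hot ends and 3.97% of cold ends in the interacting library, against 3.47% of hot and 3.11% of cold DNA. Without crosslinks these shares were 2.26% of hot ends and 2.39% of cold ends.

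Hot to cold events were spread over most hot regions. Of the 451 regions, 401 held at least 1 event in the interacting library, against 302 in the de-crosslinked one, and the median region held 3 events and 1 event in these libraries. At least 10 events were held by 43 regions in the interacting library, against 3 in the de-crosslinked one. Relative to the events in each library, 384 regions held more in the interacting library, and 92 of 451 (20.4%) held at least 4-fold more when a count of 0 in the de-crosslinked library was set to 3 events. With every pair counted in place of events, 173 regions did so. The 4-fold level lies little above the ratio for hot to cold events as a whole. These were 5.31% of the events of the interacting library, against 1.44% in the de-crosslinked one. With 0 events in the de-crosslinked library, regions with 8 in the interacting library passed (4.25-fold) and those with 7 did not (3.71-fold). A region with the median 3 events passed with 1 event in the de-crosslinked library (4.78-fold) but not with 0 (1.59-fold). Across the 451 regions, the events of a region followed its number of ends of all kinds, with a Spearman rho of 0.72 in the interacting library, against 0.60 in the de-crosslinked one, given as a description because these ends include those of the events counted. Over the 150 regions for which random joining gives at least 1 event in the interacting library, the median excess there was 3.59 times (quartiles 2.68 and 4.53).

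In the interacting library 9 regions held more than 15 events each and another 5 tied at 15. The 9 held 173 events (9.40%) there and 72 (9.05%) in the de-crosslinked library, and 5 of them passed the 4-fold level. Since passing depends on the number of events, those 5 cannot be compared with the share of all regions that passed. Since their events in the interacting library chose them, the values that follow are a description. Their excess over random joining was between 2.19 and 6.63 times there, against 0.359 to 1.11 times in the de-crosslinked library. The counting intervals of both libraries lay apart for 7 of the 9, and overlapped for the pfl2 and csx1 regions. Such regions were not counted over all 451, so the 7 cannot be set against a share of all regions. For hot to cold events as a whole the ratio was 3.76 in the interacting library, against 0.979 in the de-crosslinked one.

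The region of ste11, the gene of a master transcription factor of sexual differentiation, and of cyc3 (chrII:3977841-3985739) came first with 28 events in the interacting library, against 13 in the de-crosslinked one. This was 5.01 times (3.33 to 7.23) the random number in the interacting library, against 1.04 times (0.554 to 1.78) in the de-crosslinked one. Its cold partners lay 5.98 to 194 kb away in the interacting library, with a median of 25.9 kb, and 44.5 to 195 kb away in the de-crosslinked library, with a median of 142 kb. Of the 28 partners in the interacting library 20 lay to the left and 8 to the right, in 21 different bins of 5 kb.

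The other leading regions follow by their number of events, not by their excess. The 9 and the tenth named below held 10.2% of the events and 9.73% of all hot ends in the interacting library. Against the median excess of 3.59 times over 150 regions, those of csx1 (2.19), esc1 (2.39), pfl2 (3.46) and hsr1 (3.49) lay lower there. Those of cdc22 (3.67), mbx2 (4.11), gti1 (4.47), ste11 (5.01) and adh1 (6.63) lay higher. The region of gti1, an inducer of gluconate transport, with loc1 and rsm19 (chrI:378676-385565) held 22 events in the interacting library, against 8 in the de-crosslinked one, and that of mug115 and the transcription factor gene esc1 (chrI:1147142-1155770) held 20 and 6 in the same libraries. The esc1 region lay at 2.39 times (1.46 to 3.68) the random number in the interacting library and at 0.359 times (0.132 to 0.781) in the de-crosslinked library, the lowest value of the 9 there. The region of hsr1 and pcs2 (chrI:1949130-1960102) held 20 events in the interacting library, against 12 in the de-crosslinked one.

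The region of cdc22, which encodes the large subunit of ribonucleotide reductase, and of the iron uptake genes fip1 and fio1 (chrI:4228898-4249981) held 18 events in the interacting library, against 5 in the de-crosslinked one. That of pfl2 (chrI:3989301-3996022) held 17 and 9 in these libraries. The alcohol dehydrogenase gene adh1 lies in a region (chrIII:1581983-1596720) with 16 events in the interacting library, against 4 in the de-crosslinked one, 6.63 times (3.79 to 10.8) the random number in the interacting library. The MADS-box gene mbx2 lies in one (chrII:3620952-3636092) with 16 and 6, and the RNA-binding protein gene csx1 in one (chrI:3571832-3581807) with 16 and 9 in the interacting and de-crosslinked libraries. The 5 regions tied at 15 events held 1 to 9 events in the de-crosslinked library, and their excess in the interacting library was 2.96 to 10.2 times. The one with fewest events in the de-crosslinked library, 1, covers SPBPB2B2.05 to SPBPB2B2.08 near the right end of chromosome II (chrII:4464213-4477932) and was named as the tenth for that reason.

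The ade6 region, another of those tied at 15 events, is described because of its high excess, a choice made after the values were seen and among the 150 regions with a random number of at least 1. Regions with a lower random number reached a higher excess on fewer events. The ade6 region holds ade6, an adenine synthesis gene long used as a recombination reporter, with the spindle checkpoint gene bub1 and with vtc4 (chrIII:1313953-1320582). It held 15 events in the interacting library, against 2 in the de-crosslinked one, or 10.2 times (5.71 to 16.8) the random number in the interacting library, against 0.779 times (0.0943 to 2.81) in the de-crosslinked one. All 15 partners lay within 70.1 kb, 6 to the left and 9 to the right. The region of pex7 and cdc45 (chrI:4719060-4725440) reached 10.2 times (5.29 to 17.9) on 12 events in the interacting library, and 2.31 times (0.930 to 4.77) on 7 events in the de-crosslinked library.

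**Figure D4:**
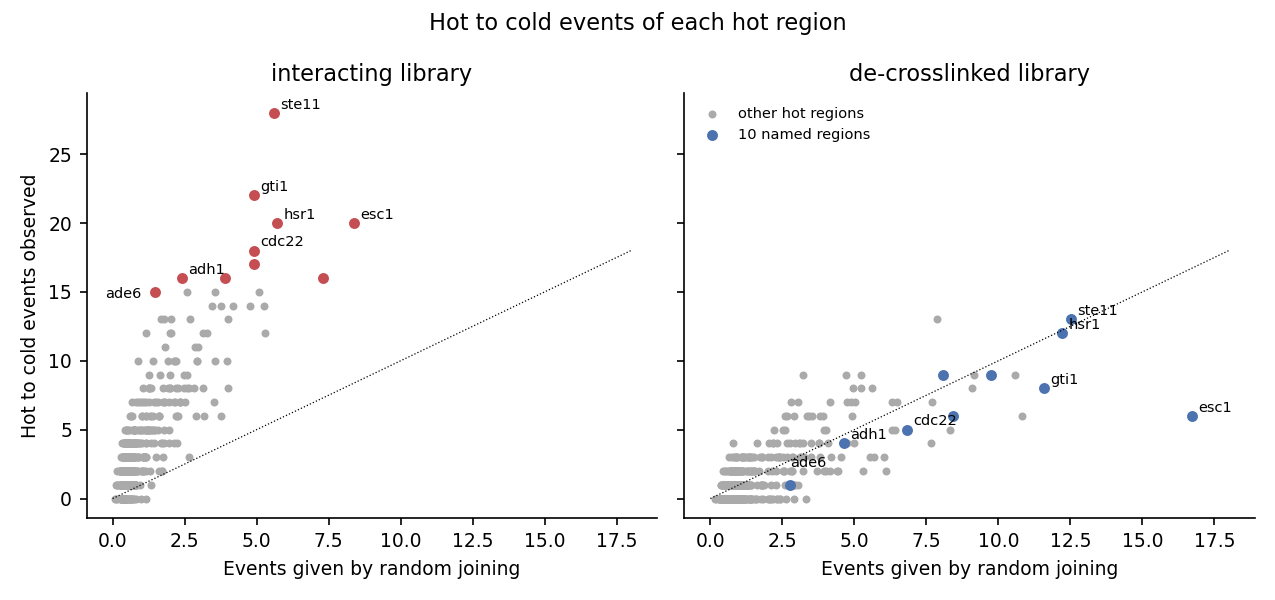
Hot to cold events of each of the 451 hot regions against the number given by random joining, in the interacting library (left) and the de-crosslinked library (right), with 10 regions of most events in the interacting library coloured (the tenth picked from 5 tied at 15 events by its lower count in the de-crosslinked library); the dotted line marks equal numbers. The ste11 region stands at 28 events in the interacting library, against 13 in the de-crosslinked one, and the ade6 region, which is not one of the 10, lies almost on the coloured point at 15 events in the left panel.

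Single hot and cold places were seldom joined more than once. Counting each hot region with each 5 kb bin of cold ends, 178 of 1636 joined pairs in the interacting library had 2 events or more and 23 had 3 or more, against 17 and 0 of 779 in the de-crosslinked library. The pair with most events joined the esc1 region to the bin chrI:1155001-1160000, which holds the DNA repair exonuclease gene pso2. This bin overlaps the right edge of the esc1 region, which ends at 1155770. It had 5 events in the interacting library, against 0 in the de-crosslinked one, 5.65 to 8.02 kb long. The ends of these 5 events lay at 1149229 and 1157109, 1150101 and 1157029, 1150303 and 1158325, 1152167 and 1157818, and 1153190 and 1159768 of chromosome I, hot end first.

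The ste11 region was joined to chrII:3955001-3960000, which holds the phosphatase gene pph3 and the glutaredoxin gene grx4, 4 times in the interacting library, against 0 times in the de-crosslinked one. These events spanned 23.4 to 26.6 kb, and with ends up to 1000 bp apart merged they count as 2. The ymc1 and erg7 region was joined 4 times in the interacting library to the bin of ifa38, at 7.06 to 11.3 kb, and once in the de-crosslinked library. Another 20 pairs had 3 events in the interacting library, and 2 are described, chosen from the 16 of them with 0 events in the de-crosslinked library by their longer distance. The hel2, nmt1 and gut2 region was joined to chrIII:1885001-1890000, which holds qcr7 and ima1, 3 times in the interacting library, against 0 times in the de-crosslinked one, at 47.8 to 54.4 kb. The region of the kinase gene nak1 and of rga5 (chrII:2482901-2488466) was joined to chrII:2445001-2450000, with fnx1, glo1 and gfa1, 3 times in the interacting library, against 0 times in the de-crosslinked one, at 37.1 to 42.2 kb.

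Seen from the cold side, a few bins met several hot regions. Cold ends of the events lay in 1138 bins of 5 kb in the interacting library, against 651 in the de-crosslinked one, and 5 or more were held by 16 bins in the interacting library, against 0 in the de-crosslinked one. The bin with most, chrI:2280001-2285000, holds sym1, ifa38, the ribosomal protein gene rpl901 and mrp5. It had 11 events in the interacting library, 28.0 times (14.0 to 50.2) the random number, and 2 in the de-crosslinked library. Since this bin was chosen for its count, the ratio is a description.

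Its 11 events reached 6 hot regions on both sides, 3 to the left and 8 to the right, over 7.06 to 115 kb. To the left lay the chz1 and rpc2 region with events of 19.3 and 20.6 kb and the arg3 region with 1 event of 7.98 kb. To the right lay the ymc1 and erg7 region with 4 events, the Hsp70 gene ssa1 with 1 of 18.8 kb and the citrate synthase gene cit1 with 1 of 42.0 kb. The farthest was the region of glm1 and the nucleoporin gene seh1, with events of 107 and 115 kb.

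**Figure D5:**
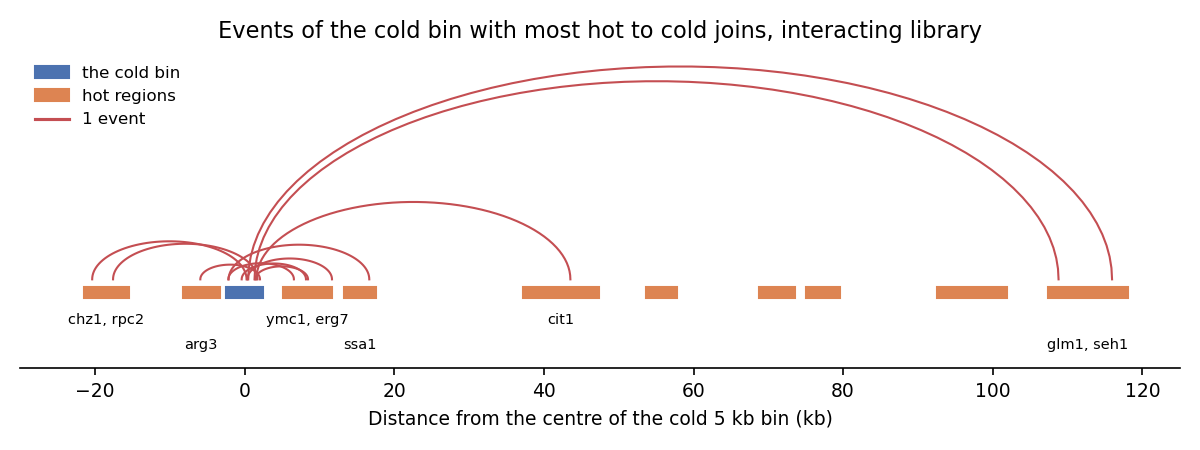
The 11 hot to cold events of the cold 5 kb bin with most events in the interacting library, drawn as arcs by distance from the centre of the bin, with hot regions as orange boxes and the bin as a blue box. The arcs reach 6 hot regions and the longest spans 115 kb; hot regions without an arc lie between them.

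The next bin, chrIII:250001-255000 at SPCC794.04C, had 9 events to 7 hot regions in the interacting library, against 3 events in the de-crosslinked one. A further 4 bins tied at 6 events in the interacting library, and the 3 named have the fewest in the de-crosslinked library (ties by position). Of these the pso2 bin had 6 events to 2 hot regions in the interacting library, against 0 events in the de-crosslinked one. Among those 6 are the 5 events with the adjoining esc1 region given above. The bin of the phosphatase gene pzh1 (chrI:1525001-1530000) held 6 events to 4 hot regions in the interacting library, against 0 in the de-crosslinked one. That of the F-box gene pof2 and mot1 (chrII:2615001-2620000) held 6 to 5 hot regions in the interacting library, against 1 in the de-crosslinked one. Relative to random joining the bins from SPCC794.04C to pof2 were 4.58 to 20.7 times as frequent in the interacting library. The lowest was the SPCC794.04C bin at 4.58 times (2.10 to 8.70), an interval that includes the 3.76 of all hot to cold events. That bin held 138 cold ends of all events in the interacting library, against 25 to 37 in the other named bins.

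Gene groups were counted by the ends of hot to cold events that lay within their genes. Of 5113 protein-coding genes, 1447 (28.3%) overlapped a hot region and 1779 (34.8%) held at least 1 such end in the interacting library, with 0.256 ends per kb in the interacting library, against 0.108 in the de-crosslinked one. Of 12 stress genes 9 overlapped a hot region, 8 held an end, and there were 15 ends in the interacting library, against 1 in the de-crosslinked one. Of 17 genes used as recombination markers 7 overlapped a hot region, 9 held an end, and there were 18 and 3 ends in the interacting and de-crosslinked libraries. Of 8 meiotic regulators 4 overlapped, 5 held an end, and there were 12 and 4 ends in these libraries. The 16 genes of linear elements and break formation had 2 in hot regions and 3 with an end, with 4 ends in the interacting library, against 3 in the de-crosslinked one.

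The median number of ends per gene in the interacting library was 1 in the stress, marker and meiotic groups and 0 in the linear element group and over all coding genes. Ends per kb were 0.577 for stress genes, 0.504 for markers, 0.684 for meiotic regulators and 0.133 for linear element genes in the interacting library, against 0.0385, 0.0840, 0.228 and 0.100 in the de-crosslinked library. The members with 3 ends or more in the interacting library were ste11 (7, against 3 in the de-crosslinked library), ade6 (6 against 1), cta3 of the stress group (5 against 0) and atf1, which encodes the stress-activated factor that binds M26 (4 against 0). All ends in ste11, ade6 and atf1 in the interacting library were hot ones, whereas cta3 held 3 hot and 2 cold ends. Since ade6 lies wholly within its hot region, a run of hot ends, its ends could only be hot. The genes ste11, atf1 and cta3 extend past theirs.

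The number of pairs per event was unequal. The hot to cold events held 6797 pairs in the interacting library, against 1803 in the de-crosslinked one, or 3.69 and 2.27 pairs per event, and 873 events (47.4%) were seen as a single pair in the interacting library, against 493 (61.9%) in the de-crosslinked one. The event with most pairs in the interacting library, 169, joined a hot end at 716432 of chromosome III to a cold end in prp11, 196 kb away. In the de-crosslinked library a 5.33 kb event with its cold end in pfl4 had 102 pairs, and it was also found in the interacting library. In all 21 events (1.14%) of the interacting and 22 (2.76%) of the de-crosslinked library had both ends within 500 bp of an event of the other library, and whether such events arose in common material was not tested.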

How the data were processed

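Per the file headers, each deposited table gives 1 ligated pair per line, with the chromosome, position and hot or cold class of both ends as the authors set them, and no counts or normalised values. The submitters' processing notes name CASAVA 1.8.0. Aligner, filters, genome build and the definition of hot and cold are not given in the sources used here. The tables held 101984 pairs (interacting) and 123434 pairs (de-crosslinked).

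Pairs were merged by single linkage within 500 bp at both ends, within a class and a distance group (5 to 200 kb, farther, between chromosomes). The event totals leave out pairs under 5 kb apart on a chromosome. Random joining was computed from all possible pairs of a library's own ends, and the matched expectation from those pairs in steps of 1 kb up to 200 kb. Farther on a chromosome and between chromosomes, those pairs were pooled for the expectation. Shares have Clopper-Pearson and counts have Poisson intervals at 95%, which cover counting error only, since amplified reads carry no molecular identifiers. The SE of a log ratio comes from counts. Zelen's exact test was added after seeing the data. Positions were checked against ASM294v3: 157 stretches without a unique 50 bp word held 0 ends, against 478 and 664 at shifts of -100 and 100 bp. On chromosome II the last position is 22 bp beyond that sequence.

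The genes named are those of the 10 hot regions, the 5 pairs of a region and a 5 kb bin, and the 5 cold bins with most events in the interacting library, with ties going to fewer events in the de-crosslinked library (for pairs, then to the longer distance) and then to position, and list members with 3 ends or more there. Members and lists were chosen with earlier results of these data known. The ratio to random joining, the ratio at matched distance and the merging of copies were tested on simulated joins. The tests that gave p-values, the odds ratios, the place of cold ends and the values of single regions and bins were not. Python 3.11.15, numpy 2.4.6, scipy 1.17.1, pandas 2.3.3 and matplotlib 3.10.9 were used. The sequence at another of the named pairs is not reported here.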

Additional observations from a re-analysis of the deposited data

Results flagged for a closer look

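The gain of nearby joins with crosslinks over those without differed between classes of ends by a test of the difference itself. The log2 odds ratio for hot to cold events less that for hot to hot events was -0.44 ± 0.13, and less that for cold to cold events it was 0.25 ± 0.09 (Zelen's exact test, adjusted p = 0.00107 and 0.00520). Both compare libraries, and neither passed 0.05 without chromosome II (exact test, adjusted p = 0.0844 and 0.137). Cold to cold events of the de-crosslinked library were themselves 1.19 times the random number, against 0.979 for hot to cold.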

How the results depend on the processing

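No paired analysis was possible because each group has 1 library, and for the same reason no replicate could be left out. The difference of the nearby share between libraries was between 17.8 and 28.8 percentage points over 11 alternatives (20.8 as reported). The excess of hot to cold events over random joining in the interacting library, 3.76 as reported, was 5.10 with every pair counted, 3.34 from 10 kb, 6.40 up to 100 kb, 3.42 without chromosome II and 3.20 with joining restricted to a chromosome. In the de-crosslinked library it stayed between 0.952 and 1.02 over 12 alternatives. The matched ratio was 0.894 to 0.938 in the interacting and 0.882 to 0.941 in the de-crosslinked library. Without chromosome II the odds ratio differences were -0.32 against hot to hot and 0.17 against cold to cold, with adjusted Wald p-values of 0.0810 and 0.134. Over all 12 alternatives, Zelen's exact test included, they ran from -0.63 to -0.32 and from 0.17 to 0.41. The 4-fold level was passed by 83 to 173 of 451 hot regions over 6 alternatives (92 as reported), the highest with every pair counted. The alternative without events found in both libraries and those for hot regions and the place of cold ends were chosen after seeing the data. Ratios for cold ends within 2 kb of another hot region were 1.12 to 1.26 in the interacting library, the highest with every pair counted. Where an alternative moved a value, the cause was not tested. With 1 library per group no biological spread was measured, and counts of 1 to 5 events per region or bin are within counting error of each other.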
